A study of Mus musculus with 2 samples.

Results

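Scavenger and endocytic receptors are the surface proteins with which macrophages take up modified lipoproteins, glycoproteins, dying cells and sialic acid-coated particles and pass them to the lysosome. Mrc1, Siglec1, Stab1 and Msr1 are typical of tissue macrophages, and Stab1 and Mrc1 also of sinusoidal and lymphatic endothelium. Cd36, Scarb1 and Lrp1 work in many cell types that handle lipids, and Cd68 and Scarb2 lie mainly in endosomes and lysosomes. The genes described here are these 9, found by their symbols among the 14774 genes of the deposited table, and all 9 are in it and passed the filter on low values. They were chosen by their function and by their reads in the 2 libraries, whose difference was known, so their folds are a description and no test is given for them.

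The sequenced RNA came from cells that the labels call regulatory T cells, CD4+CD25+ cells of C57BL/6 spleens, after co-culture for 5 days with the SV40-transformed mouse endothelial line SVEC4-10. The endothelial cells had been given a control oligo (control library) or siRNA against Capns1, the small subunit of the conventional calpains (knockdown library). Each condition had 1 library, so no difference has a replicate check. The age of the mice, whether spleens were pooled, and how the T cells were parted from the endothelial cells before RNA was taken are not given in the sources used here. Each fold, knockdown over control library, has an exact 95% interval computed from the reads of that gene. It sets 2 libraries and not 2 conditions against each other, and it covers counting error only, because 1 library per condition gives no spread between cultures. PCR copies were not told apart by molecular identifiers, so the interval can be too narrow even for counting error.

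The deposited totals were 48100576 reads (control library) and 47300284 reads (knockdown library). At that depth 3 reads correspond to 0.0626 and 0.0642 CPM, the read count scaled to library size. Capns1 stood at 243 and 236 CPM, and since the siRNA was given to the endothelial cells this does not check the labels. The label of the cells was set against markers. Foxp3, the factor that defines regulatory T cells, stood at 5.22 and 4.73 CPM, and 12 of 13 T cell markers summed to 256 and 240 CPM. Among these T cell markers the most reads went to Cd8a and Cd8b1, and not to Cd4, which the label names. By such a sum, 10 of 10 B cell markers reached 2967 and 2644 CPM and 17 of 20 macrophage and monocyte markers 1893 and 1421 CPM. The 14 measured of 16 markers of matrix-producing cells reached 3011 and 2882 CPM. Markers of cells other than T cells were thus abundant in both libraries, and which cells the receptor reads came from was not measured.

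The receptors most typical of tissue macrophages were the lowest of the 9 in the knockdown library relative to the control. Mrc1, the mannose receptor that takes up glycoproteins with exposed mannose, was covered by 618 control and 243 knockdown reads, or 12.9 and 5.20 CPM. That is a fold of 0.403 (95% interval 0.346 to 0.468), the sixth lowest of all listed genes. Siglec1, the sialoadhesin that binds sialic acids on other cells and on vesicles, had 1435 and 590 reads (30.0 and 12.6 CPM) and a fold of 0.421 (0.382 to 0.464). Stab1, stabilin 1, which clears modified lipoproteins and matrix fragments, had 834 and 361 reads (17.4 and 7.72 CPM) and a fold of 0.444 (0.391 to 0.502). Msr1, the class A scavenger receptor for acetylated and oxidised lipoproteins, had the most reads of these 4, with 4097 and 1953 (85.5 and 41.8 CPM), and a fold of 0.488 (0.463 to 0.516). The intervals of Stab1 and Msr1 reach past 0.5, so their place beyond a 2-fold difference is not settled by the reads. These 4 of the 9 genes were at least 2-fold lower and 0 were at least 2-fold higher. Over all listed genes 0.135% were called lower by that rule and 0.00677% higher, and nothing is read from the gap because the difference helped to choose the genes. In bulk RNA, fewer macrophages and less receptor RNA per macrophage cannot be told apart.

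**Figure D1:**
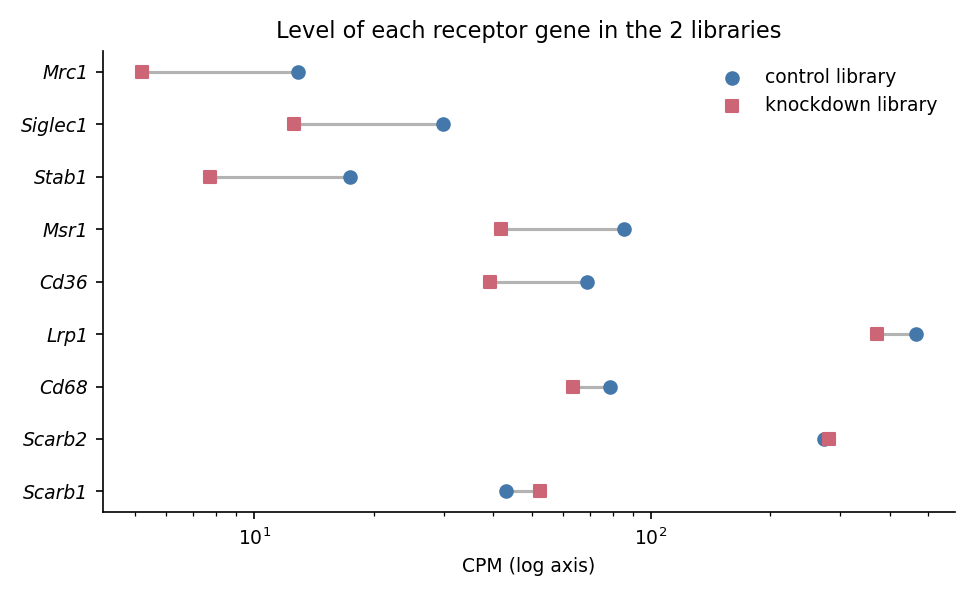
Level of each of the 9 receptor genes in CPM (log axis) in the control library (circles) and the knockdown library (squares), 1 library each, ordered by fold from the lowest at the top. The points of Mrc1, Siglec1, Stab1, Msr1 and Cd36 lie far apart, those of Scarb2 almost coincide at 273 and 280 CPM, and Scarb1 and Scarb2 are the genes with the knockdown point on the right.

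The proportions of reads among these 4 genes can be set side by side in the libraries. There were 0.431 Mrc1 reads for each Siglec1 read in the control and 0.412 in the knockdown library, a ratio of folds of 0.956 (95% interval 0.798 to 1.14). The ratio of folds of Siglec1 to Stab1 was 0.950 (0.810 to 1.11) and that of Stab1 to Msr1 0.908 (0.791 to 1.04). All 3 intervals include 1, which does not show that the genes were equally low. The ratio of Mrc1 to Msr1 was 0.825 (0.701 to 0.968) and that of Siglec1 to Msr1 0.863 (0.771 to 0.964), but with the trend of folds with transcript length taken out they were 0.857 (0.729 to 1.01) and 0.910 (0.814 to 1.02), and both intervals include 1. Against Cd68, a lysosomal glycoprotein widely used to mark macrophages, the proportions moved further. Msr1 had 1.08 reads for each Cd68 read in the control and 0.656 in the knockdown library, a ratio of folds of 0.605 (0.562 to 0.650).

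The class B receptors, a family of related proteins that bind lipoproteins and lipids, went separate ways. Cd36, which takes up oxidised lipoproteins and long-chain fatty acids, had 3304 and 1839 reads (69.0 and 39.3 CPM) and a fold of 0.570 (95% interval 0.538 to 0.604). Its interval lies wholly above 0.5, so it is the gene just outside the 2-fold call, as Msr1 is the gene just inside it. Scarb1, the receptor that takes cholesterol from high-density lipoprotein, had 2059 and 2452 reads (43.0 and 52.4 CPM) and was the highest of the 9 at a fold of 1.22 (1.15 to 1.29). Scarb2, the lysosomal membrane protein that carries glucocerebrosidase to the lysosome, had 13075 and 13110 reads (273 and 280 CPM) and a fold of 1.03 (1.003 to 1.05). With library totals in place of TMM sizes the interval of Scarb2 was 0.995 to 1.04 and included 1. Between Cd36 and Scarb1 the gap was wide. The control library held 1.605 Cd36 reads for each Scarb1 read and the knockdown library 0.750, a ratio of folds of 0.467 (0.430 to 0.508).

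Cd68 and Lrp1 were lower by a smaller amount. Cd68 had 3777 and 2977 reads (78.8 and 63.7 CPM) and a fold of 0.808 (95% interval 0.769 to 0.848). Lrp1, a very large receptor for proteinase-inhibitor complexes and apolipoprotein E that fibroblasts and macrophages share, had 22300 and 17390 reads (465 and 372 CPM) and a fold of 0.799 (0.783 to 0.815). The ratio of their folds was 1.01 (0.959 to 1.06), and 0.842 (0.799 to 0.888) with the length trend taken out. In all, the intervals of 7 of the 9 genes lay below 1 and those of 2 above, where 22.7% of all listed genes had an interval below 1 and 24.2% one above. The median log2 fold of the 9 was -0.81, beside 0.00 over all listed genes, with a range from -1.31 to 0.29.

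**Figure D2:**
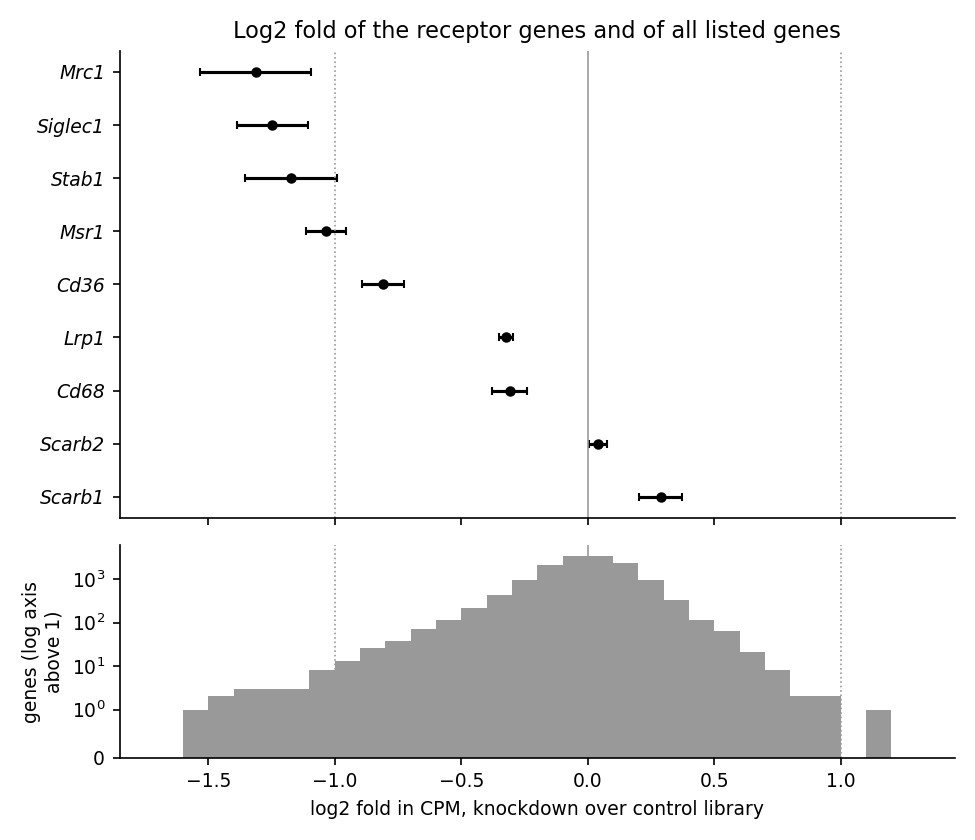
Log2 fold in CPM, knockdown over control library. Upper panel, the 9 receptor genes with their exact 95% counting intervals; lower panel, the number of listed genes per step of 0.1 (log axis above 1). Dotted lines mark 2-fold. The 4 lowest receptors lie past the left dotted line, in the thin tail of the 14774 genes, while Lrp1, Cd68, Scarb2 and Scarb1 lie nearer its body.

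Per length the order of the genes differs from their order by reads. Levels per kilobase of the longest annotated transcript, in CPM per kilobase with exact Poisson 95% intervals, were highest for Cd68 in the control library at 64.1 (62.1 to 66.2), followed by Scarb2 at 58.1 (57.1 to 59.1). Lrp1 came next at 31.3, ahead of Msr1 at 23.5, Cd36 at 20.3 and Scarb1 at 13.9. Siglec1 followed at 4.69, and Mrc1 at 2.40 (2.21 to 2.60) and Stab1 at 2.18 (2.03 to 2.33) came last, with intervals that overlap. In the knockdown library Scarb2 led at 59.7 and Cd68 stood at 51.8. Scarb1, which lay below Msr1 and Cd36 in the control, lay at 16.95 above Cd36 at 11.6 (11.05 to 12.1) and Msr1 at 11.5 (10.98 to 12.01), whose intervals overlap. Lrp1 and Scarb2 together held most of the reads of the 9 genes, 43.3% and 25.4% in the control library. The 4 lowest receptors held 13.6% of them in the control and 7.69% in the knockdown library, so the summed level of the 9, 1075 and 875 CPM, says little about them.

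Transcript length moved with the folds of all genes in these libraries, long transcripts being lower, and several of the receptors have long transcripts. The fitted trend in log2 fold was -0.17 at the length of Lrp1 and 0.09 at that of Cd68. The longest annotated transcript of Lrp1 is 14888 bases, that of Stab1 7999, of Siglec1 6387 and of Mrc1 5374. With the trend on length taken out, the fold of Lrp1 was 0.902 (95% interval 0.884 to 0.920). Mrc1 stood at 0.415, Siglec1 at 0.440, Stab1 at 0.473 (0.417 to 0.536) and Msr1 at 0.483 (0.458 to 0.510) after the same step. All 4 folds stayed below 0.5, but the intervals of Stab1 and Msr1 again reached past it. Cd68, at 1230 bases the shortest, went to 0.760 (0.724 to 0.797), an interval that no longer overlaps that of Lrp1. In the RefSeq annotation Stab1 overlaps Nt5dc2, which had a fold of 1.11 (1.04 to 1.19), and Lrp1 overlaps the predicted gene Gm16217, with only 185 and 148 reads. Because the use of strand is not given, reads of such pairs cannot be told apart.

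Promoter windows of RefSeq (build GRCm38.p6, which is not one of the builds named for the reads) were matched by gene identifier for 6 of the 9 genes, reaching from 250 bases before the start to 50 after it. Those of Mrc1 (chr2:14229164-14229463, plus strand) and Stab1 (chr14:31168592-31168891, minus strand) are shown as receptors that were low together, and those of Cd68 (chr11:69666121-69666420, minus strand) and Scarb2 (chr5:92505608-92505907, minus strand) as genes that were little or not lower. Each runs 5′ to 3′, and capitals mark GAGGAA or its reverse complement TTCCTC, the purine-rich core of sites of PU.1, the myeloid factor encoded by Spi1, which other ETS factors can share.
Mrc1: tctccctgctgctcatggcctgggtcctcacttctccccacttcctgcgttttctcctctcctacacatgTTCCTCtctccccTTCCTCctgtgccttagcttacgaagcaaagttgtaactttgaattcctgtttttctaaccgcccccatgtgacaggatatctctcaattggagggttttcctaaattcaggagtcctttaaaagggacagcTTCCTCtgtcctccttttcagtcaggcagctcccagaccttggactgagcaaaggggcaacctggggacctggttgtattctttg
Stab1: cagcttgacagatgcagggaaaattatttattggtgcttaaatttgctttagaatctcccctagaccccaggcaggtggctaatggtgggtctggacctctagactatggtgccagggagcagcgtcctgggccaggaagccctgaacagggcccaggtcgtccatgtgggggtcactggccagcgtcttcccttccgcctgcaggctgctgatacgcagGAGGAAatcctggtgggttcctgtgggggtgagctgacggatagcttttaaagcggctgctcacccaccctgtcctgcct
Cd68: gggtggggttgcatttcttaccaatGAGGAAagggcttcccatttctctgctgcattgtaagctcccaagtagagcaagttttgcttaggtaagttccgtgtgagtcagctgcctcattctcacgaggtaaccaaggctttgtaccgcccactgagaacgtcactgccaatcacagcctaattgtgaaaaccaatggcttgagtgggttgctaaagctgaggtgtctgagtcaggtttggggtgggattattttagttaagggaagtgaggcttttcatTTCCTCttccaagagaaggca
Scarb2: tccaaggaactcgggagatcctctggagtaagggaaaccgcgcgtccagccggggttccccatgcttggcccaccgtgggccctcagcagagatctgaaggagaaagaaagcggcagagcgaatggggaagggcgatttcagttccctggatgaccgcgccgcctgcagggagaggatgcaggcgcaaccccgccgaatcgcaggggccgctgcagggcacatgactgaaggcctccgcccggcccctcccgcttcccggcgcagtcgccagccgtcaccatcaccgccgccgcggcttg
These letters occur 3 times in the window of Mrc1, 2 times in that of Cd68 and 1 time in that of Stab1, and they are not in the windows of Cd36, Scarb2 and Lrp1. They occur in 28.3% of the 32851 windows given for all genes. Cd68 thus had the motif and Cd36 did not, and no window was matched for Msr1, Siglec1 or Scarb1. Over the 3545 listed genes with the motif in a window the median log2 fold was -0.009, and over the 7800 without it 0.012. Whether the motif goes with the folds was not tested. Of 4 other motifs searched on both strands, none of which contains those letters, TATAAA (13.6% of all windows) and CACGTG (7.15%) were in none of the 6. The AP-1 site TGAGTCA (5.20%) was in Cd68 alone, 2 times, and the GC box GGGCGG (35.7%) was in all but Stab1. The windows differ more clearly in CpG pairs, with 3 in Mrc1, 3 in Cd36, 4 in Cd68 and 7 in Stab1, against 16 in Lrp1 and 28 in Scarb2, beside a median of 7 over all windows. Over the 1475 listed genes with at most 5 CpG pairs in every window the median log2 fold was -0.08, and over the other 9870 with a window 0.01. A match of letters is a description and not a binding site.

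Other scavenger receptors, from a list of related genes, did not reach the size of the difference seen in Msr1 or Stab1. Of 18 such genes 10 were measured and none was 2-fold apart, with 2 intervals below 1, 3 above and a median log2 fold of -0.11. The 2 with the most reads were Scarf2, a class F receptor, at a fold of 1.09 (95% interval 1.04 to 1.15), and Cd14, the co-receptor for lipopolysaccharide, at 0.916 (0.840 to 0.999). The lowest was Olr1, the lectin-like receptor for oxidised lipoprotein, with 240 and 161 reads and a fold of 0.687 (0.559 to 0.843), named after its value was seen. Marco and Cd163, receptors of splenic macrophages, were not analysed here.

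Among the C-type lectin and Siglec relatives of Mrc1 and Siglec1, 9 of 16 measured intervals lay below 1 and 1 above, and the median log2 fold was -0.24. The most abundant were the B cell Siglecs, Cd22 at a fold of 0.877 (95% interval 0.860 to 0.895) and Siglecg at 0.899 (0.869 to 0.931). Chosen after their values were seen, the lectins Clec4a3 and Mgl2 were the lowest, at 0.578 (0.429 to 0.773; 133 and 75 reads) and 0.615 (0.483 to 0.780; 190 and 114 reads). Mrc2 and Ly75, of the same family as Mrc1, stood at 1.07 (0.966 to 1.197) and 0.970 (0.922 to 1.02), and were named for that kinship after their values were seen. Clec4e, which senses mycobacterial lipid, was the highest at 1.306 (1.199 to 1.42) and was named in the same way.

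The LDL receptor family, to which Lrp1 belongs, was listed with its sorting receptors, and 13 of 15 genes were measured, with 3 intervals below 1, 2 above and a median log2 fold of -0.02. The most reads went to Sorl1, a sorting receptor, at 0.870 (95% interval 0.850 to 0.890) and Lrp10 at 1.03 (1.005 to 1.06). Sorl1 was the lowest of the measured relatives, so Lrp1 at 0.799 lay below each of them.

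Of 17 measured partners and ligands of the receptors, 8 intervals lay below 1 and 1 above, beside 22.7% and 24.2% of all listed genes. The median log2 fold of the list was -0.09. Both of the most abundant are ligands of Lrp1, Apoe at a fold of 0.992 (95% interval 0.970 to 1.01) and App at 0.940 (0.925 to 0.956). With the length trend taken out Apoe stood at 0.936 (0.915 to 0.957) and App at 1.005 (0.988 to 1.02). Which of the intervals lay below 1 thus changed with that step. Dab2, a clathrin adaptor for receptors of the LDL family that macrophages also express, was the lowest at 0.675 (0.646 to 0.704), with 5203 and 3425 reads, and was named after its value was seen. The shared machinery of clathrin uptake lay near equality. Of its 26 genes 25 were measured, 10 intervals lay below 1 and 7 above, and the median log2 fold was -0.01. Cltc, the clathrin heavy chain, stood at 0.893 (0.878 to 0.909) and Rab7, the GTPase of late endosomes, at 0.983 (0.965 to 1.002). With the length trend taken out they stood at 0.935 (0.918 to 0.951) and 0.947 (0.930 to 0.965), and both intervals lay below 1.

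The lysosomal and late endosomal membrane list, the compartment of Cd68 and Scarb2, had 20 of 20 genes measured, 7 intervals below 1, 4 above and a median log2 fold of -0.02. Lamp1, an abundant lysosomal membrane glycoprotein, stood at a fold of 1.02 (95% interval 1.01 to 1.04), or 0.988 (0.973 to 1.004) with the length trend taken out, and Laptm5, a lysosomal protein of blood cells, at 0.931 (0.914 to 0.949). Cd68 lay below the lowest member of the list, Lgmn, a lysosomal protease at 0.842 (0.816 to 0.869) named after its value was seen. Among 14 measured genes of lipid handling, which act on what Cd36, Msr1 and Scarb1 bring in, 8 intervals lay below 1 and 1 above, with a median log2 fold of -0.14. The most abundant were Lpl, lipoprotein lipase, at 0.768 (0.747 to 0.790) and Plin2, a coat protein of lipid droplets, at 0.906 (0.881 to 0.932). The lowest was the cholesterol exporter Abca1, at 0.699 (0.675 to 0.724) and also singled out after the fact.

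**Figure D3:**
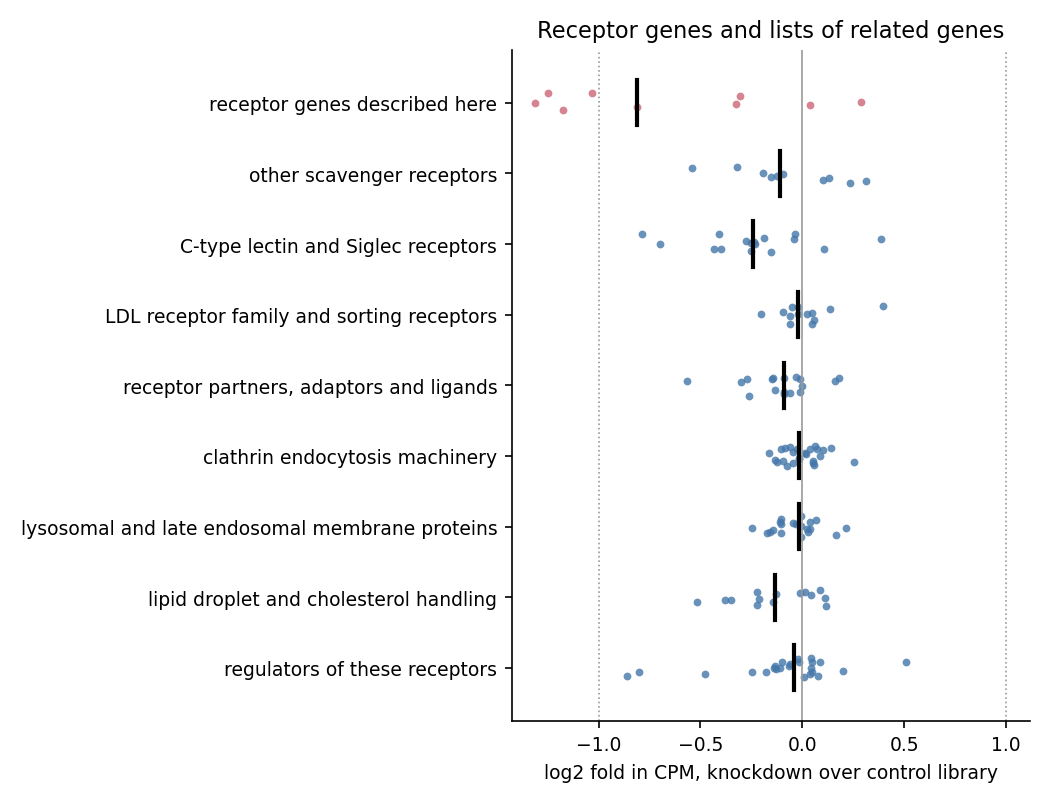
Log2 fold in CPM, knockdown over control library, of the 9 receptor genes (top row) and of the measured genes of 8 lists of related genes; each point is a gene, the black bar is the median of the row, vertical jitter has no meaning, and dotted lines mark 2-fold. The medians of the related lists lie between -0.24 and -0.01, against -0.81 for the receptor genes, which were chosen with these folds known.

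Of 24 measured regulators of these receptors, 11 intervals lay below 1 and 4 above, none was 2-fold apart, and the median log2 fold was -0.04. The most abundant were Csf1, the macrophage growth factor, at a fold of 1.02 (95% interval 0.999 to 1.05) and Stat3 at 0.954 (0.929 to 0.981). Named after their values were seen, Csf1r, the receptor for that factor, was the lowest at 0.551 (0.507 to 0.598; 1656 and 890 reads), and the transcription factor gene Maf stood at 0.717 (0.674 to 0.763). Spi1, which encodes PU.1 and which B cells express too, stood at 0.915 (0.864 to 0.968) and is given for the motif above.

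Most markers of macrophages and monocytes were lower in the knockdown library, as were most of the receptor genes but not Scarb1 or Scarb2. Of 20 such genes 17 were measured, 16 had intervals below 1 and none above, and 2 were at least 2-fold lower, C1qc at a fold of 0.338 (95% interval 0.251 to 0.451) and C1qb at 0.381 (0.301 to 0.480), chains of complement C1q. The median log2 fold was -0.40, and the summed level of 1893 and 1421 CPM gives a ratio of 0.751. The most abundant markers were Lyz2, lysozyme, at 0.735 (0.725 to 0.746) and Ctss, cathepsin S, at 0.781 (0.764 to 0.799). Mrc1, Siglec1, Stab1 and Msr1 were lower than all but these 2 C1q genes, whereas Cd68 lay among the other markers, 12 of the 17 being at or below its fold. Of 13 markers of tissue macrophages 5 were measured, among them Cd5l at 0.356 (0.242 to 0.515) and F13a1 at 0.358 (0.306 to 0.417), which were called, and the most abundant, Hmox1 at 0.895 (0.867 to 0.924) and Vcam1 at 1.08 (1.01 to 1.16), which were not. Their summed level was 232 and 207 CPM. The part of cell number in the receptor folds was not tested.

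Markers of other cell types that can carry these receptors lay on both sides of equality. The 5 measured of 16 endothelial markers summed to 115 and 112 CPM, with 1 interval below 1 and 1 above. Pecam1, the adhesion molecule CD31, stood at 0.950 (95% interval 0.908 to 0.993) and Vwf, von Willebrand factor, at 1.16 (1.03 to 1.31), while Stab2 and Lyve1, which sinusoidal and lymphatic endothelium share with Stab1, were not analysed here. The 14 measured markers of matrix-producing cells, which express Lrp1, summed to 3011 and 2882 CPM, with 5 intervals below 1 and 2 above, led by Col5a2 at 0.925 (0.913 to 0.937) and Fn1 at 0.892 (0.877 to 0.907). Platelets and their precursors carry Cd36, and of 7 measured erythroid and platelet markers 4 intervals lay below 1 and none above. Pf4, platelet factor 4, was called at 0.417 (0.373 to 0.466), and the globin genes Hbb-bs and Hba-a1 stood at 0.886 (0.873 to 0.898) and 0.920 (0.906 to 0.934). Pf4 was the only gene called in that list, whose median fold was 0.887. Itga2b of the same list was the highest at 1.08 and was named after its value was seen. Neutrophil markers went the other way, as the intervals of 8 of 11 lay above 1 and those of 3 below, at a summed level of 426 and 589.5 CPM. Mpo, myeloperoxidase, stood at 1.69 (1.62 to 1.76) and S100a9 at 1.29 (1.24 to 1.35).

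**Figure D4:**
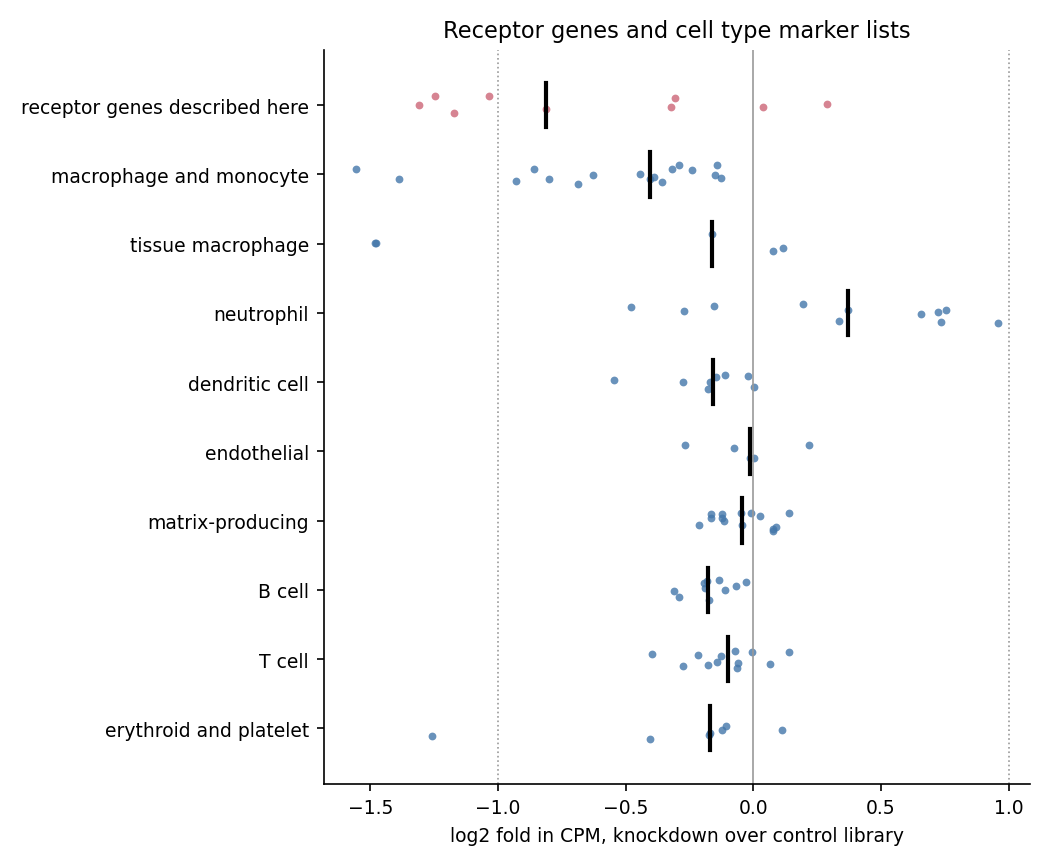
Log2 fold in CPM, knockdown over control library, of the 9 receptor genes (top row) and of the measured genes of 9 cell type marker lists; each point is a gene, the black bar is the median of the row, vertical jitter has no meaning, and dotted lines mark 2-fold. The macrophage and monocyte row has its median at -0.40 and the neutrophil row at 0.37, and the medians of the other marker rows lie between them.

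Lymphocyte and dendritic cell markers were listed too. Among 10 B cell markers 9 intervals lay below 1 and none above, the most abundant being Cd79a at 0.926 (95% interval 0.910 to 0.942) and Cd22, given above. Of 12 measured T cell markers 4 intervals lay below 1 and none above, with Cd8a at 0.884 (0.839 to 0.932) and Cd8b1 at 0.996 (0.938 to 1.06). The lowest was Cd4 at 0.759 (0.650 to 0.886), with 394 and 292 reads. Of 8 dendritic cell markers 2 lay below 1, with H2-Ab1, a class II chain that B cells express too, at 0.986 (0.969 to 1.002) and Irf8 at 0.885 (0.860 to 0.910). The lowest of these was Itgax at 0.684 (0.562 to 0.832), with 262 and 175 reads, and it and Cd4 are named after their values were seen.

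The pattern of Msr1, the low receptor with the most reads, was set against 9917 other named genes with at least 1000 reads over both libraries. The nearest in log2 fold, a likeness over 2 libraries only, were Slc7a8, an amino acid transporter, at a fold of 0.501 (95% interval 0.447 to 0.561), Adam8, a metalloprotease of myeloid cells, at 0.476 (0.445 to 0.508), and Mmp12, the macrophage elastase, at 0.502 (0.474 to 0.532). They differed from Msr1 by 0.04 each on the log2 scale. Of these, Mmp12 was the nearest in reads too, with 3492 in the control and 1712 in the knockdown library.

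The authors' deposited table gives log2 ratios from reads scaled to equal totals, of -1.32 for Mrc1, -1.26 for Siglec1, -1.18 for Stab1, -1.04 for Msr1 and -0.82 for Cd36. For the rest the authors' deposited table gives -0.33 for Lrp1, -0.32 for Cd68, 0.03 for Scarb2 and 0.28 for Scarb1. These ratios come from the same reads as the folds above, and a change of scaling shifts every gene alike. The order of the 9 genes therefore could not differ, and its sameness is no separate check.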

How the data were processed

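RNA of co-cultured cells was sequenced in 1 control and 1 knockdown library. Trimmomatic 0.39 and BWA 0.7.17 are named without roles in the submitters' processing notes, and the sources used here do not say how reads were counted per gene or whether by strand. The authors deposited counts of mapped reads per gene, not normalized. The columns were matched to the samples by their prefixes, Cont and Si, so the direction of every fold rests on that reading. The authors also deposited a signal of these reads scaled to equal totals or by a TMM-named factor, and log2 ratios, which equal those of the total-scaled reads to within 0.005. The row of library totals, of which 0.782% and 0.764% lie in no listed gene, was left out. CPM uses TMM library sizes (edgeR 4.0.16, R 4.3.3). Folds, exact 95% Clopper-Pearson intervals and log2 folds (prior count 0.5) were computed in Python 3.11.15 with scipy 1.17.1. Genes needed 1 CPM in at least 1 library and 10 reads summed over both libraries, which all 14774 met. A call needs a fold of at least 2, or at most 0.5, and an interval excluding 1. This step was tested on simulated counts with counting error only, which cannot check it against spread between cultures. Transcript lengths came from the longest GENCODE M21 transcript (13381 genes, 90.6%), with a lowess trend. Alternatives were scaling by total counts, upper quartiles or DESeq2 1.42.0 size factors, a fold of 1.5, a prior count of 2, other filters and removal of the length trend. The receptor genes and all lists were chosen with earlier results of these data known. Named are every receptor gene, the called members and the 2 genes with the most reads of each list, and the 3 genes with at least 1000 reads nearest to Msr1 in log2 fold; others are said to be chosen after their values were seen. Some genes of the lists are counted but not reported here by name.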

Additional observations from a re-analysis of the deposited data

How the results depend on the processing

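With 1 library per group no spread between cultures is known, and intervals cover counting error only. No paired analysis was possible because each group has 1 library. Of the 9 receptor genes, 4 were at least 2-fold lower and 0 at least 2-fold higher under each of the 4 scalings, without the filter, with at least 5 CPM, with a prior count of 2 and with the length trend removed, and 5 were lower at a fold of 1.5. The filters and the prior count could not change these counts, because all 9 genes pass each filter and the prior enters log2 folds only. The median log2 fold of the 9 ran from -0.83 (length trend removed) to -0.81 (prior count 2). The count of all genes at least 2-fold lower went from 20 to 10 with at least 5 CPM, and at a fold of 1.5 to 180, with 43 higher. Removing the length trend took 21 of the 50 named genes outside their counting interval, Lrp1 among them, and reversed none of the called genes. Every listed gene had at least 100 control reads, so a gene that is abundant in the knockdown library alone is not analysed here.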
